A study of Caenorhabditis remanei with 48 samples.

Results

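The gene models described here are the expressed models of *Caenorhabditis remanei* whose identifier, CRE_PX356_ followed by digits, holds no CRE locus number. They were chosen by that form of the identifier and by a median of at least 10 CPM (read counts per 1000000 reads in genes, with library sizes adjusted by TMM, edgeR's scaling factors) over 48 libraries. Of 6642 such models among 24723 in the count files, 402 reached that level, and all 402 also passed the filter of the test. They are called unnumbered models below, and are set against the 6418 models with a CRE number that reached the same level, of 18081. The level over all libraries chose the models, so their levels are a description, while their responses to temperature were not used in the choice.

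The libraries came from polyadenylated RNA of first-stage (L1) larvae of 3 populations of this outcrossing relative of *C. elegans*: a heat-selected and a control-selected population, both derived from strain PX443, and the ancestor, PX443 itself. Parents were kept at 30 or 20 °C, and bleached embryos of each were held for 20 h at 30 or 20 °C in buffer with no food. The 12 groups are, in each population, larvae at 30 °C and larvae at 20 °C of heated parents (30 °C, 2 libraries each) and larvae at 30 °C and at 20 °C of unheated parents (20 °C, 6 libraries each). Each library pooled about 100000 larvae, passed through a 20-micron filter, so a value is a mean over a pool. A smaller share of expressing larvae and less RNA per larva cannot be told apart. The labels give 2 batches per population (A and B in the ancestor, C and D in the control-selected, E and F in the heat-selected population), and every library of heated parents is in A, C or E.

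Gene models are predictions of where genes lie. The pipeline MAKER, whose naming style the files use, joins ab initio predictors such as AUGUSTUS and SNAP, which read the genome sequence alone, with evidence from transcripts and proteins. By that style a name that begins with maker marks a model shaped by such evidence, and augustus_masked or snap_masked marks a prediction made on repeat-masked sequence. Animals held above their usual temperature switch on chaperone genes, the heat shock response, and in *C. elegans* larvae that hatch without food stop growing until fed. The identifiers carry the name of another strain, PX356, than the larvae sequenced. The files pair no unnumbered model with a gene name, so nothing is said here of what any of them encodes.

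A library held 1986770 to 12717700 reads counted in models. TMM factors ran from 0.72 to 1.52. Reads outside genes made up 8.03 to 47.1% of a library and reads not aligned 9.77 to 37.5%. Nothing in the labels says that replicates were separate cultures, so the p-values measure only the spread between these samples, which may be technical.

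The unnumbered models were less abundant than the numbered ones. Their median level was 25.6 CPM (quartiles 14.9 and 63.3), against 38.6 CPM (19.6 and 89.9) in the numbered models. The band of 10 to 20 CPM held 41% of the unnumbered and 25.9% of the numbered models. At 500 CPM and over the order turned, with 5.97% of the unnumbered models (24) and 4.52% of the numbered ones (290). Of the 6240 unnumbered models below 10 CPM, 1610 had no count in any library, 24.2% of all unnumbered models, against 4.13% of all numbered ones. Of the 402, 401 were counted in all 48 libraries. Together the 402 models took 4.59 to 8.95% of the counts of a library, with a median of 6.5%.

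**Figure D1:**
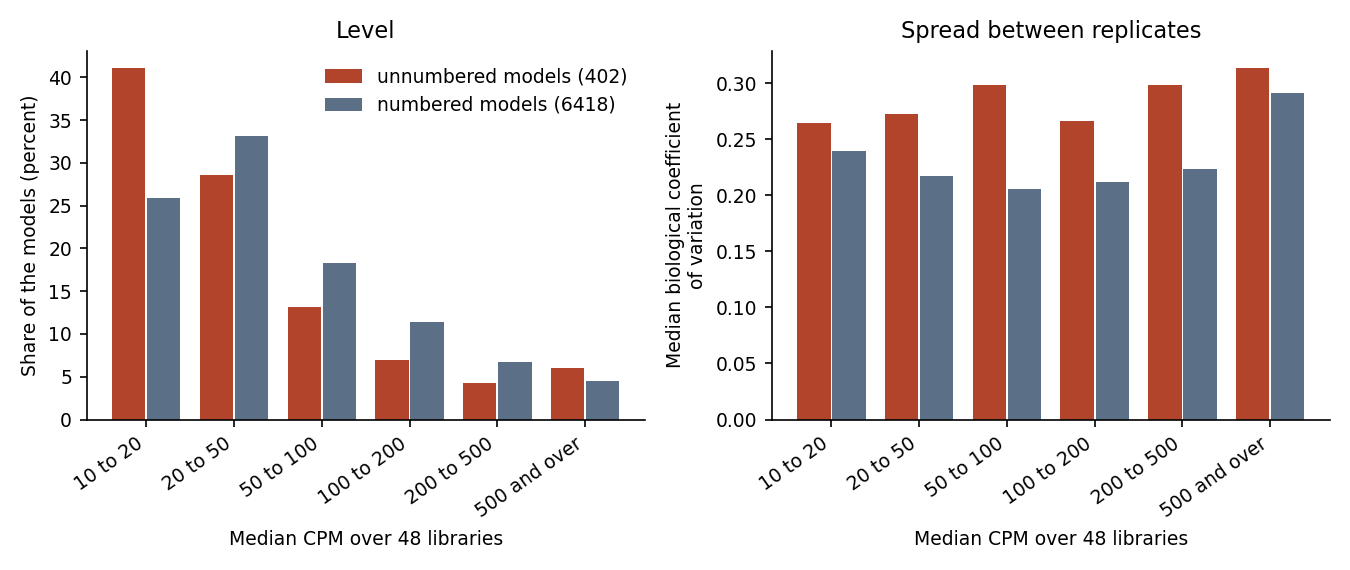
Level and spread of the 402 unnumbered models beside 6418 numbered models of at least 10 CPM. Left, the share of models (percent) in each band of median CPM over 48 libraries; right, the median biological coefficient of variation from the edgeR fit in the same bands. The unnumbered models have the taller bar at 10 to 20 CPM and at 500 CPM and over, and a larger spread in each of the 6 bands.

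Fewer of the unnumbered models had names that begin with maker. Of the 402, 178 (44.3%) were named maker, 128 (31.8%) snap_masked and 96 (23.9%) augustus_masked. In the numbered models of the same level the shares were 76.1, 5.69 and 18.3%. Unnumbered models below 10 CPM leaned further to SNAP, with 65.2% named snap_masked and 20.4% maker. Among the 402, the median level was 26.5 CPM for maker, 31.7 CPM for augustus_masked and 20.8 CPM for snap_masked names. Sequences called linkage groups held 179 of the 402 (44.5%), led by linkage groups 4 (44 models), 1 (42) and 2 (26), and 46.2% of the numbered models. The rest lay on scaffolds.

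The 6 most abundant unnumbered models took 13.4 to 38.3% of the counts of all 402, depending on the library. CRE_PX356_1452 (maker, linkage group 4) came first, with a median of 4746 CPM and a range of 1485 to 8250.1 CPM over the 48 libraries. CRE_PX356_1453, which has the next number and is placed by its name in the same interval of linkage group 4, had a median of 3711 CPM (1034 to 6603). That interval, number 11 in the names, held 5 of the 402 models, more than any other. CRE_PX356_48 (augustus_masked, linkage group 1) had a median of 3397 CPM (1034 to 8784), and CRE_PX356_4864 (snap_masked, linkage group 7) 3025 CPM (604 to 7652). CRE_PX356_1510 (maker, linkage group 4) and CRE_PX356_5467 (snap_masked, scaffold 163) followed, at 2502 CPM (431 to 9906) and 2157 CPM (299.9 to 4505). These ranges overlap throughout, and the order is one of reads per model, not of transcripts, because the files give no lengths.

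CRE_PX356_48 and CRE_PX356_4864 kept nearly the same ratio from library to library although their names place them on different linkage groups. CRE_PX356_4864 stood at 0.551 to 1.01 times CRE_PX356_48 (median 0.836), and their log2 levels had Pearson's r = 0.992 and Spearman's rho = 0.993 over 48 libraries that share their groups and depth. Between the models of linkage group 4 the ratio of CRE_PX356_1453 to CRE_PX356_1452 ran from 0.455 to 1.36, with r = 0.862 and rho = 0.817. These pairs were picked after their values were seen. Whether the members of a pair share reads through near-identical sequence was not tested, and their counts are uncertain to that extent.

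Replicates of the unnumbered models scattered more in the fit with batch as labelled, the only 1 for which this spread was taken. The biological coefficient of variation, edgeR's estimate of the spread between replicates beyond counting error, had a median of 0.281 (quartiles 0.229 and 0.329) in the unnumbered models, against 0.224 (0.184 and 0.278) in the numbered ones. The unnumbered models had the higher median in each of the 6 bands of level, for example 0.298 against 0.205 at 50 to 100 CPM. In 6 of the 402 models (1.49%) the highest library stood at 10 or more times the model's median, against 0.483% of the numbered models. The widest were CRE_PX356_1986, CRE_PX356_430 and CRE_PX356_5212, whose highest libraries stood 466, 150.2 and 46.4 times above their medians.

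Part of the variation was shared by the unnumbered models within a library. For each library the log2 deviation of every model from its own median library was taken, with 0.5 added to the CPM, and the median over the 402 models ran from −0.61 to 0.38. Over the numbered models the same median ran only from −0.14 to 0.13. Across the 48 libraries the deviation of the unnumbered models fell as the TMM factor rose (Pearson's r = −0.94, Spearman's rho = −0.95) and rose with the percent of reads not aligned (r = 0.74, rho = 0.80), given as descriptions. For the numbered models rho was −0.67 with the TMM factor and 0.43 with reads not aligned. The deviations are CPM already divided by the TMM factor, so the relation with that factor is partly built in. TMM also centres the bulk of the 13460 models tested, of which 11867 are numbered. The narrow range of the numbered models is thus partly built in as well.

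The batches of the labels went with the same axis. In batches B, D and F the median library stood at 0.18, 0.19 and 0.17 log2 units, and in batches A, C and E at −0.46, −0.13 and −0.07. Batch A was the lowest, but 2 of its 10 libraries, ancestor larvae at 30 °C replicates 5 and 6, stood at 0.18 and 0.38, while the other 8 lay between −0.61 and −0.39. Counted by group, 310 and 301 of the 402 models had a median of at least 10 CPM in the ancestor groups of heated parents, all of batch A, against 381 and 367 in the ancestor groups of unheated parents (larvae at 30 and 20 °C). The fit below takes batch as the labels give it, and values with the ancestor's replicates 5 and 6 at 30 °C placed in batch B are given where they differ.

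**Figure D2:**
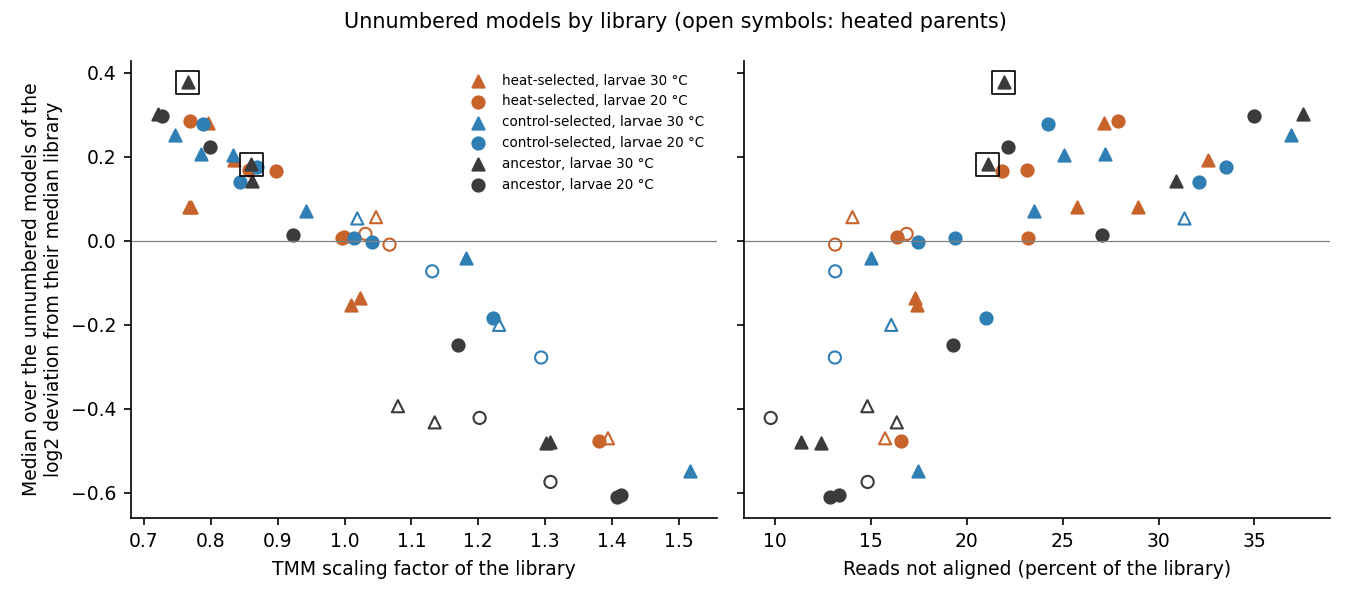
Median over the 402 unnumbered models of their log2 deviation from their own median library, for each of 48 libraries, against the library's TMM scaling factor (left) and its percent of reads not aligned (right). Triangles are larvae at 30 °C, circles larvae at 20 °C, open symbols heated parents and colours populations; the 2 boxed points are ancestor larvae at 30 °C, replicates 5 and 6. Points descend from upper left to lower right in the left panel (r = −0.94).

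One comparison asked how models respond to larval temperature, at 30 against 20 °C with unheated parents. In the ancestor 139 of the 402 unnumbered models rose at 30 °C and 45 fell (edgeR quasi-likelihood test, Benjamini-Hochberg adjusted p under 0.05 over all 13460 models tested). These are 34.6 and 11.2% of the unnumbered models, where 21.2% of all tested models rose and 17.9% fell, 39% in all. With numbered models weighted to the same bands of level, 26.2% rose and 19.3% fell. The share called was thus 45.8% in unnumbered and 45.5% in weighted numbered models, and the split differed: 75.5% of the calls were rises in the unnumbered models and 60.1% in the numbered ones. For this share of rises among calls the numbered models were not weighted to level, here and below. The median log2 fold change was 0.36 (quartiles −0.15 and 0.90) in the unnumbered models, 0.12 in the numbered models and 0.02 in all tested models. Of the calls, 76 rises and 17 falls were of at least 1 log2 unit, a count not taken for the numbered models. By source the rises and falls were 57 and 25 for maker, 37 and 13 for augustus_masked and 45 and 7 for snap_masked models. In the numbered models they were 1314 and 920, 359 and 189, and 100 and 67. The shares called were 46.1, 52.1 and 40.6% of the unnumbered and 45.8, 46.8 and 45.8% of the numbered models of these sources. The counts by source are from this fit alone.

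The number of rises in the ancestor varied with the batch term and the scaling. Within batch A alone 106 unnumbered models rose and 25 fell, with 80.9% of the calls rises, against 64.7% in the numbered models (median log2 fold change 0.51 in the unnumbered models against 0.16). That fit sets 30 °C replicates 1, 2, 5 and 6 against 20 °C replicates 1 and 2. It thus keeps in batch A the replicates 5 and 6, whose deviations of 0.18 and 0.38 lay apart from the rest of that batch. Within batch B alone 65 rose and 40 fell, with 61.9% rises, against 49.9% of the numbered models' calls (median 0.11 against −0.01). With the ancestor's batches read off the replicate number (1 and 2 as A, 3 to 6 as B) the counts were 101 and 54, with 65.2% rises, against 59.2% of the numbered models' calls (median 0.16 against 0.09). With no batch term they were 49 and 31, with 61.2% rises, against 60.8% of the numbered models' calls. Scaling to total counts moved the median of all tested models to −0.27, where that of the unnumbered models was 0.02, and gave 96 rises and 77 falls, with 55.5% rises, against 36.8% of the numbered models' calls. With consecutive replicates summed in pairs, 54 rose and 23 fell, with 70.1% rises, against 59.1% of the numbered models' calls. The share of rises was thus above that of the numbered models in each of these fits, by the least with no batch term. The near-equality of the shares called did not hold under other batch terms: unnumbered minus weighted numbered models was −6.23 points with batches from the replicate number, −6.26 with no batch term and −5.80 with the replicate number as a block. Without ancestor larvae at 20 °C replicate 1 the count of calls fell to 122. How far reads not aligned or the batch labels enter the ancestor's split was not tested beyond these fits.

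In the control-selected population 32 unnumbered models rose at 30 °C and 59 fell, where 12.2 and 11.2% of all tested models did so (23.4% in all). These are 22.6% of the unnumbered models, against 28.9% of the numbered models weighted to the same levels. Rises made up the gap, with 7.96% against 15%, while falls made up 14.7% against 13.9%. Falls outnumbered rises in each band of level, with 13 rises and 15 falls at 10 to 20 CPM and 11 and 17 at 20 to 50 CPM. The split was widest at 500 CPM and over, where 0 of 24 models rose and 9 fell. Calls there made up 37.5% of the unnumbered models, against 23.8% of the 290 numbered models. Median log2 fold changes in that band were −0.34 and −0.08. The numbered calls were not split by direction within bands. Over all levels the median log2 fold change of the unnumbered models was −0.03, against 0.04 in the numbered ones. Batch D alone gave 57 rises and 48 falls and batch C alone 3 and 10, so the preponderance of falls was not found in batch D. With no batch term 24 rose and 32 fell, and with pairs summed 9 and 19.

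In the heat-selected population 40 rose and 50 fell, where 10.7 and 11.6% of all tested models did so (22.3% in all). Together they are 22.4% of the unnumbered models, against 28.4% of weighted numbered models, with 9.95% against 14.9% for rises and 12.4% against 13.5% for falls. The median log2 fold change was 0.06 in the unnumbered and 0.07 in the numbered models. Which direction led depended on the fit. Under total-count scaling 38 rose and 75 fell, with the median of all tested models at −0.16, and with no batch term 23 and 30. With the replicate number as a block 61 rose and 57 fell, with the ancestor's batches from the replicate number 63 and 56, and with pairs summed 14 and 12. The shortfall of calls against the weighted numbered models, −6.28 points in the control-selected and −5.97 points in the heat-selected population, became 0.26 and 2.37 under total-count scaling and 1.36 and 1.14 with replicates summed in pairs. Within single batches it was −0.07 in C, −5.18 in D, −0.81 in E and −0.25 in F. It stands beside the larger spread between replicates of the unnumbered models, whose part in it was not tested.

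**Figure D3:**
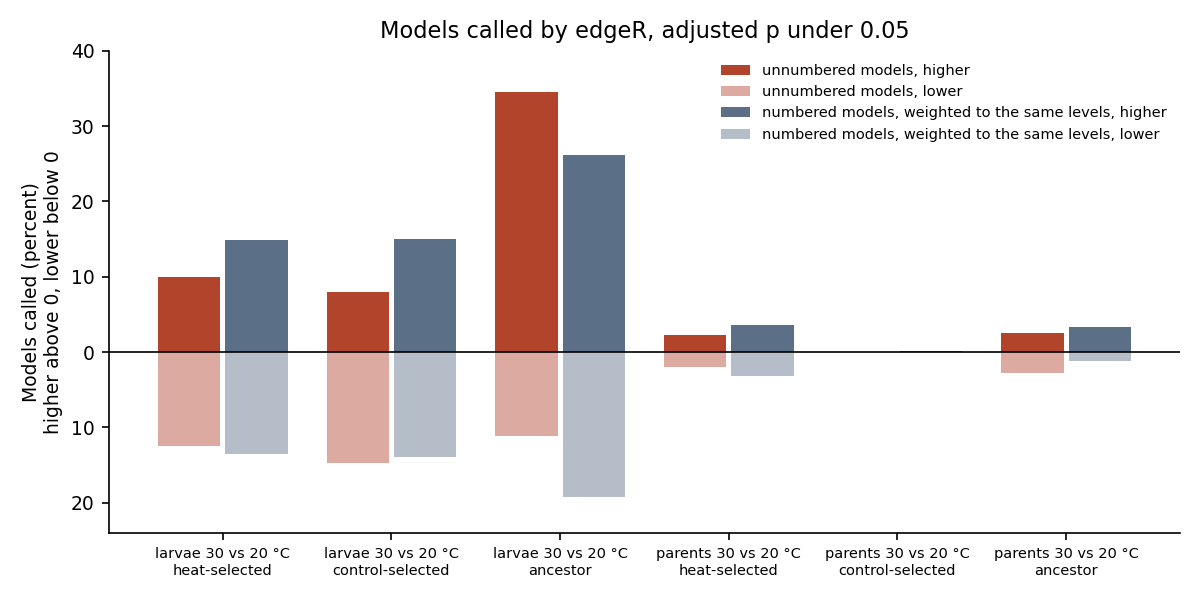
Share (percent) of the 402 unnumbered models (red) and of numbered models weighted to the same bands of level (blue) called higher (above 0) or lower (below 0) at 30 than at 20 °C, for larval temperature with unheated parents and for parental temperature averaged over both larval temperatures, in 3 populations. The tallest red bar is the ancestor's larval rises at 34.6%, and no unnumbered model was called for parental temperature in the control-selected population.

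Calls in all 3 populations made up 9.95% of the unnumbered models, 15.7% of the numbered models and 10.7% of all tested models. The numbered models were not weighted to level for these counts. Larval temperature gave a call in none of the 3 populations for 169 of the 402, in 1 for 141, in 2 for 52 and in all 3 for 40. Of the last, 21 rose and 19 fell in every population, where 5.51 and 5.19% of all tested models did so; these are 5.22 and 4.73% of the unnumbered models, against 8.66 and 7.01% of the numbered ones. Of the 141 called in 1 population, 107 were called in the ancestor, 92 of them as rises. Among the 1807 numbered models called in 1 population, 1212 were called in the ancestor, 795 of them as rises. Among the 3669 of all tested models called in 1 population, these were 2438 and 1417. No population gave a call for 42% of the unnumbered, 41.3% of the numbered and 49.4% of all tested models. These counts take batch as labelled, and the ancestor's rises varied with the batch term, as given above. Fold changes were nonetheless related between populations, which share no library. Across the 402 models Pearson's r was 0.864 (Spearman's rho 0.773) between heat-selected and control-selected, 0.846 (0.745) between heat-selected and ancestor and 0.753 (0.581) between control-selected and ancestor. The numbered models had rho of 0.809, 0.756 and 0.682 for the same pairs. These correlations are across models, which are not independent replicates.

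Groups that did not overlap were uncommon among numbered and unnumbered models alike. In the ancestor all 6 libraries at 30 °C lay above all 6 at 20 °C in 12 unnumbered models and below them in 7, where 3.99 and 3.67% of all tested models did so. The counts were 14 and 18 in the control-selected population (3.8 and 4.44% of all) and 13 and 10 in the heat-selected population (2.93 and 3.08%). As shares of the 402 models these are 2.99 and 1.74%, 3.48 and 4.48%, and 3.23 and 2.49%. The numbered models of at least 10 CPM had 6.03 and 4.07%, 5.8 and 6.48%, and 4.3 and 4.1%.

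The same 2 models, CRE_PX356_1986 and CRE_PX356_430, rose most in each of the 3 populations, and they share an interval of scaffold 127. Their log2 levels had Pearson's r = 0.98 and Spearman's rho = 0.968 over the 48 libraries. Whether they share reads was not tested, so they may not be 2 separate responses. CRE_PX356_1986 (maker) had lowest, median and highest levels of 1592, 3796 and 15689 CPM in ancestor larvae at 30 °C, against 4.88, 10.4 and 63.8 CPM at 20 °C. Its log2 fold change was 8.19 ± 1.44 (SE; adjusted p = 2.5e-05). In the control-selected population the same 3 values were 66.7, 1083 and 11754 CPM at 30 °C and 2.48, 2.82 and 54.4 CPM at 20 °C (log2 fold change 6.97 ± 1.72, SE; adjusted p = 0.0025). The 30 °C libraries lay above all 20 °C libraries in both populations. In the heat-selected population it had 676, 8389 and 30215 CPM at 30 °C, against 11.7, 51.5 and 2111 CPM at 20 °C, where replicate 3 alone passed 250 CPM and made the groups overlap (log2 fold change 5.81 ± 1.33, SE; adjusted p = 0.0013). At 30 °C consecutive replicates lay close together, with 66.7, 81.8, 11754, 10665, 1185 and 982 CPM in control-selected replicates 1 to 6.

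CRE_PX356_430 (augustus_masked), in the same interval, gave 1263, 2569 and 5788 CPM in ancestor larvae at 30 °C, against 4.58, 14.9 and 35.5 CPM at 20 °C, with no overlap (log2 fold change 7.54 ± 1.10, SE; adjusted p = 1.4e-06). In the control-selected population it gave 97, 1174 and 3427 CPM at 30 °C and 3, 4.46 and 46.3 CPM at 20 °C, again without overlap (6.60 ± 1.25, SE; adjusted p = 1.2e-04). The heat-selected values were 396, 8612 and 10849 CPM at 30 °C and 9.1, 58.5 and 736 CPM at 20 °C, where replicate 3 at 20 °C lay above the 2 lowest libraries at 30 °C (5.67 ± 1.05, SE; adjusted p = 1.1e-04). Within batch C alone the larval log2 fold changes were 1.47 for CRE_PX356_1986 and 2.44 for CRE_PX356_430, neither past the threshold, and within batch D alone they were 8.59 and 8.24, both past it. Summed in pairs, CRE_PX356_1986 kept log2 fold changes of 6.94 and 5.68 in the control-selected and heat-selected populations but missed the threshold.

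The third unnumbered model of that interval of scaffold 127 took another course. CRE_PX356_1985 (maker), described here after its values were seen, had 99.8, 422 and 823 CPM at 30 °C and 578, 1408 and 2007 CPM at 20 °C in the control-selected population, a log2 fold change of −1.85 ± 0.25 (SE; adjusted p = 7.2e-07). In the heat-selected population it had 234, 410.1 and 521 CPM at 30 °C and 342, 713 and 1115 CPM at 20 °C (−0.88 ± 0.24, SE; adjusted p = 0.0071). It thus fell in these 2 populations, in which its neighbours rose, although its groups overlapped in both. In the ancestor it had 312, 441 and 1152 CPM at 30 °C and 431, 792 and 1686 CPM at 20 °C (−0.20 ± 0.25, SE; adjusted p = 0.57), which missed the threshold, and its control-selected response differed from that of the ancestor by −1.65 ± 0.36 (SE; adjusted p = 0.015). That difference was lost with the ancestor's batches from the replicate number, with the replicate number as a block, with no batch term and with pairs summed, since 0 unnumbered models were called for it in each of these fits.

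With heated parents the levels of CRE_PX356_1986 and CRE_PX356_430 lay apart between populations, in 2 libraries per group. The change of their larval response with parental temperature (the interaction) passed the threshold for neither model in any population. The difference between the control-selected and ancestor parental effects passed it for neither model as well. At 30 °C with heated parents CRE_PX356_1986 had 48.2 and 22.8 CPM in the heat-selected population and 59.5 and 63.9 CPM in the control-selected population. In the ancestor it had 18878 and 11166 CPM there, the first above and the second within the range at 30 °C with unheated parents. In the same larvae CRE_PX356_430 had 28.5 and 66.6 CPM in the heat-selected, 71.1 and 70.2 CPM in the control-selected and 9462 and 6529 CPM in the ancestor population. The heat-selected values lie below every library of the same population at 30 °C with unheated parents, and so do the control-selected values of both models. The closest control-selected libraries were replicates 1 and 2 at 30 °C of unheated parents, also of batch C, with 66.7 and 81.8 CPM of CRE_PX356_1986. The parental effect on CRE_PX356_430, averaged over both larval temperatures, was −3.85 ± 1.18 (SE; adjusted p = 0.044) in the heat-selected population, and differed from that in the ancestor by −4.95 ± 1.47 (SE; adjusted p = 0.028). Both calls were lost when consecutive replicates were summed (−4.19 and −5.13). The first was also lost without any 1 of 5 heat-selected libraries (values from −4.22 to −3.33): 30 °C replicates 1 and 2 of unheated parents and 30 °C replicates 1 and 2 and 20 °C replicate 1 of heated parents. The second was lost without 30 °C replicate 1 or 2 of unheated parents, 30 or 20 °C replicate 1 of heated parents, or the ancestor's 20 °C replicate 1 of heated parents (values from −4.70 to −4.43). For CRE_PX356_1986 the heat-selected parental effect was −3.73 ± 1.47 (SE; adjusted p = 0.13), which missed the threshold.

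**Figure D4:**
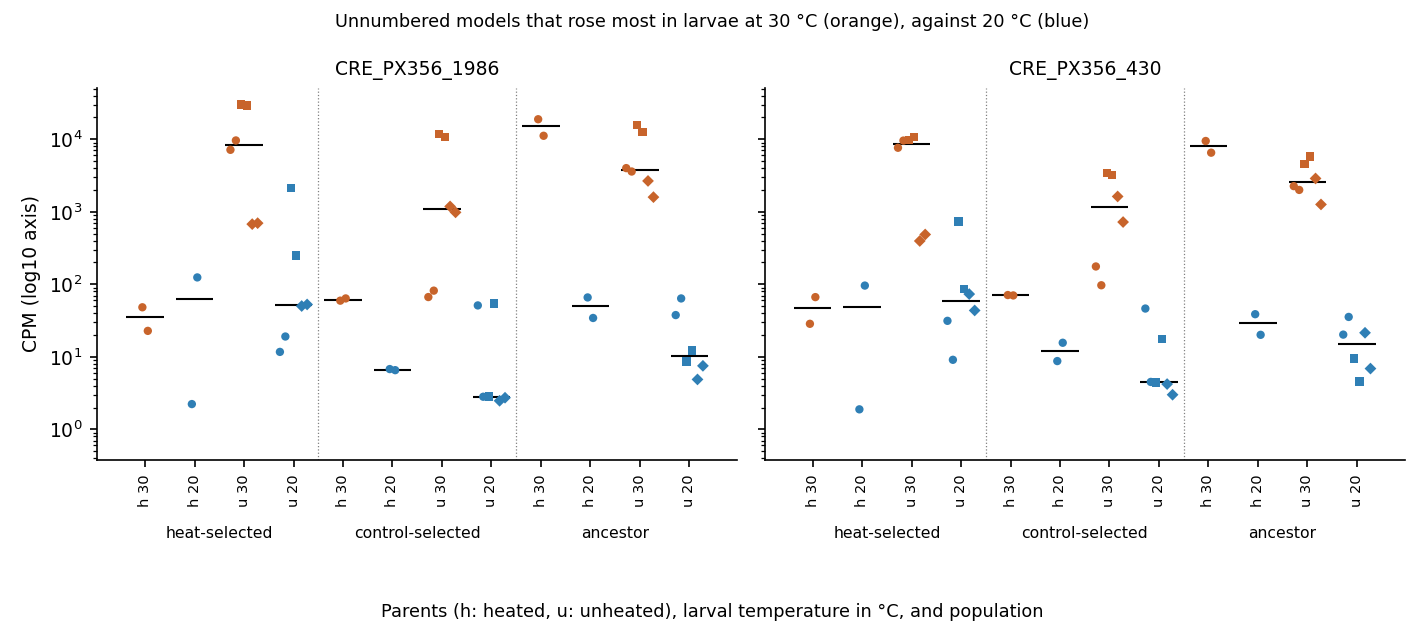
CPM of CRE_PX356_1986 and CRE_PX356_430 in every library (log10 axis), by population and by parental (h, heated; u, unheated) and larval temperature; bars are group medians, and circles, squares and diamonds are replicates 1 and 2, 3 and 4, and 5 and 6. For CRE_PX356_1986, larvae at 30 °C of heated parents reach at most 48.2 CPM (heat-selected) and 63.9 CPM (control-selected), against 18878 CPM in the ancestor.

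Among the falls, CRE_PX356_938 (augustus_masked, scaffold 7) led in the ancestor. Its lowest, median and highest levels were 4.55, 6.69 and 16.3 CPM at 30 °C, against 15.9, 50.4 and 66.4 CPM at 20 °C, a log2 fold change of −2.49 ± 0.34 (SE; adjusted p = 3.2e-07). It also fell in the control-selected population, to 6.64, 8.08 and 17.6 CPM at 30 °C, against 23.5, 38.8 and 57.6 CPM at 20 °C without overlap (−2.04 ± 0.33, SE; adjusted p = 1.2e-05), and in the heat-selected population, with 5.42, 8.61 and 16.9 CPM at 30 °C and 13.2, 26.1 and 79.4 CPM at 20 °C (−1.82 ± 0.34, SE; adjusted p = 1.1e-04). The ancestor and heat-selected groups overlapped. CRE_PX356_415 (augustus_masked, scaffold 1203) followed in the ancestor, with 8.8, 13.6 and 55.5 CPM at 30 °C and 34, 67.9 and 131 CPM at 20 °C (−2.17 ± 0.37, SE; adjusted p = 1.3e-05). The 2 libraries of each group from replicates 1 and 2 were the highest of their group, and the groups overlapped.

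CRE_PX356_2523 (maker, scaffold 50a) also fell in every population. In the ancestor it had 2.36, 3.4 and 10.2 CPM at 30 °C, against 9.65, 20.4 and 31.7 CPM at 20 °C (−1.71 ± 0.23, SE; adjusted p = 3.8e-07). The control-selected values were 3.47, 5.49 and 8.56 CPM at 30 °C and 18.6, 21.2 and 26.3 CPM at 20 °C (−1.98 ± 0.23, SE; adjusted p = 2.8e-08). The heat-selected values were 4.38, 7.21 and 8.96 CPM at 30 °C and 14.3, 22.7 and 41.2 CPM at 20 °C (−1.77 ± 0.23, SE; adjusted p = 3.2e-07). The groups did not overlap in the control-selected and heat-selected populations. The largest falls of the control-selected population were those of CRE_PX356_2394 and CRE_PX356_2249. CRE_PX356_2249 (maker, scaffold 22), an abundant model, had 163, 229.5 and 335 CPM at 30 °C and 659.8, 1165 and 1585 CPM at 20 °C (−2.35 ± 0.21, SE; adjusted p = 6.1e-11), and did not overlap between temperatures in any of the 3 populations. CRE_PX356_2394 (maker, scaffold 35) had 1.87, 11.8 and 55.8 CPM at 30 °C and 18.2, 122 and 259.6 CPM at 20 °C (−2.90 ± 0.45, SE; adjusted p = 6.7e-06). Its libraries were widely spread within each of these groups, and the groups overlapped.

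**Figure D5:**
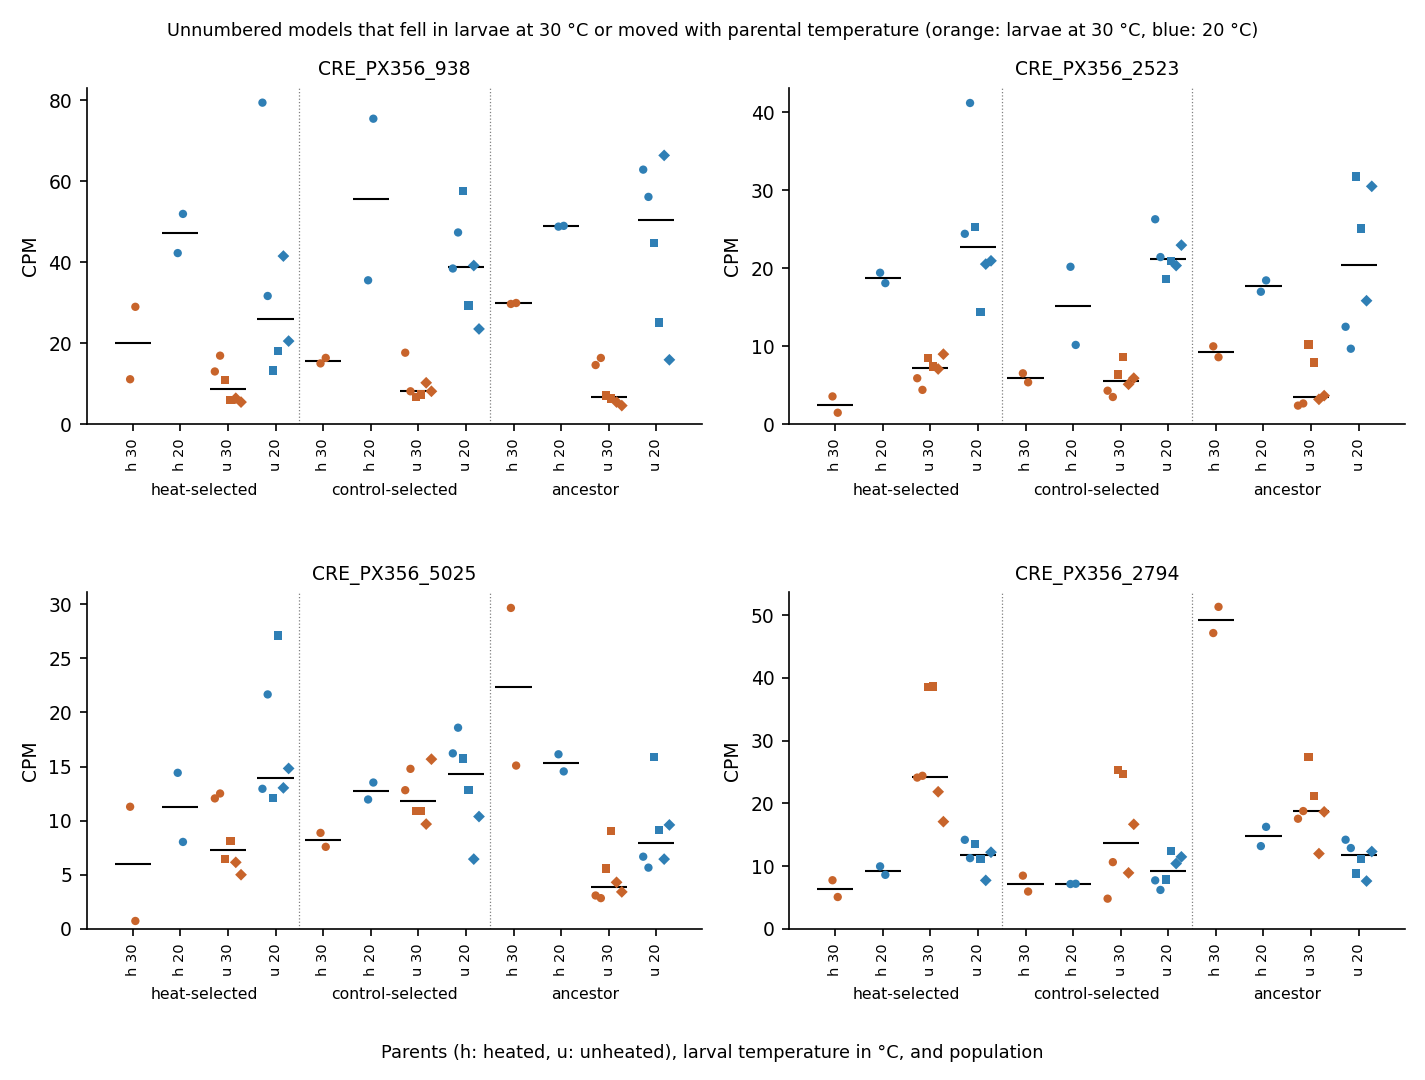
CPM of 4 unnumbered models in every library, by population and by parental (h, heated; u, unheated) and larval temperature; bars are group medians, and circles, squares and diamonds are replicates 1 and 2, 3 and 4, and 5 and 6. CRE_PX356_938 and CRE_PX356_2523 are lower in larvae at 30 °C in all 3 populations; CRE_PX356_5025 and CRE_PX356_2794 reach their highest values in ancestor larvae at 30 °C of heated parents, at 29.7 and 51.3 CPM.

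The names placed the 402 models in 340 intervals, of which 45 held 2 or more, 107 models in all. Interval 0 of scaffold 365 held 4 models with medians of 207 to 742 CPM. All 4 rose in the ancestor, by 1.51 to 1.87 log2 units, and in the heat-selected population, by 1.15 to 1.22. In the control-selected population their log2 fold changes lay between −0.14 and −0.07 and none passed the threshold, and no difference in larval response between populations passed the threshold for them either. This interval was singled out after its values were seen, and models of 1 interval may share reads, which was not tested.

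Another comparison concerned parental temperature, averaged over both larval temperatures. In the ancestor 10 unnumbered models were higher and 11 lower with heated parents, where 2.97 and 0.892% of all tested models were (3.86% in all). These are 5.22% of the unnumbered models, against 4.54% of weighted numbered models, but the split leaned the other way: 47.6% of the calls were rises, against 73.5% in the numbered models. With ancestor batches from the replicate number it was 13 higher and 1 lower, with no batch term 22 higher and 117 lower, and under total-count scaling 8 higher and 21 lower. Within batch A alone it was 5 higher and 2 lower, with the replicate number as a block 11 higher and 1 lower, by DESeq2 10 higher and 24 lower, and with pairs summed 1 higher and 0 lower. The lean against the numbered models turned with ancestor batches from the replicate number (92.9 against 74.9% rises) and with the block (91.7 against 76.4%). It kept its direction with no batch term (15.8 against 34%), under total-count scaling (27.6 against 39.6%), within batch A (71.4 against 84.6%) and by DESeq2 (29.4 against 61.1%). The count also rested on single libraries. It was 33 and 40 without ancestor 30 °C replicate 1 or 2 of unheated parents. It was 9 and 7 without 20 °C replicate 1 or 2 of heated parents, and 12 without 30 °C replicate 1 of heated parents. Of the 21 models, 16 were also called for larval temperature in at least 1 population, as were 58% of the unnumbered models and 50.6% of all tested models.

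CRE_PX356_5025 (snap_masked, linkage group 9) rose most with heated parents in the ancestor. It had 29.7 and 15.1 CPM at 30 °C and 16.1 and 14.5 CPM at 20 °C with heated parents, against 2.83, 3.85 and 9.02 CPM at 30 °C and 5.65, 7.91 and 15.9 CPM at 20 °C with unheated parents (lowest, median and highest). The log2 difference was 2.04 ± 0.31 (SE; adjusted p = 2.9e-05). At 30 °C both libraries of heated parents lay above all of unheated parents, and at 20 °C 1 of the 2 did. CRE_PX356_2523 had 9.96 and 8.57 CPM at 30 °C and 17 and 18.4 CPM at 20 °C with heated parents, where the 2 batch A libraries of unheated parents at 20 °C had 12.5 and 9.65 CPM (1.19 ± 0.24, SE; adjusted p = 0.0017). That call was lost with no batch term (0.34) and with pairs summed (1.18).

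The 2 largest falls with heated parents in the ancestor were of models that were low in most of batch A. CRE_PX356_5212 (snap_masked, scaffold 1208) had 4.87 and 0.559 CPM at 30 °C and 0.369 and 0.459 CPM at 20 °C with heated parents (log2 difference −4.32 ± 1.12, SE; adjusted p = 0.017). With unheated parents, replicates 1 and 2 had 8.11 and 4.69 CPM at 30 °C and no read and 0.783 CPM at 20 °C, while replicates 3 to 6 had 153 to 1131 CPM at 30 °C and 97.2 to 237 CPM at 20 °C. With ancestor batches from the replicate number the difference was −1.32 and missed the threshold, and within batch A alone it was −2.86, also short of it. CRE_PX356_4211 (snap_masked, linkage group 4) had 4.87 and 7.73 CPM at 30 °C and 28.3 and 25.7 CPM at 20 °C with heated parents (−1.57 ± 0.47, SE; adjusted p = 0.047). Replicates 1 and 2 of unheated parents gave 24.1 and 24.5 CPM at 30 °C and 12.6 and 15.1 CPM at 20 °C, and its difference with ancestor batches from the replicate number was −0.51, short of the threshold. In both models the ancestor's replicates 5 and 6 at 30 °C, labelled batch A, lay with the batch B libraries. The call of CRE_PX356_5212 was lost without any 1 of 5 of the 16 ancestor libraries (values from −4.38 to −3.43): 30 °C replicates 4 and 5 of unheated parents, and 20 °C replicates 1 and 2 and 30 °C replicate 2 of heated parents. That of CRE_PX356_4211 was lost without any 1 of 10 of them (values from −1.78 to −1.22): replicates 3 and 4 at 20 °C and 3 to 6 at 30 °C of unheated parents and all 4 of heated parents.

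In the control-selected population 0 unnumbered models were called for parental temperature by edgeR, where 0.119% of all tested models were called higher and 0.0371% lower (0.156% in all). At an unadjusted p under 0.05 there were 20, a count taken here and below for the unnumbered models alone. DESeq2 called 0 and limma-voom 0. In the heat-selected population 9 were higher and 8 lower with heated parents, where 2.77 and 2.77% of all tested models were (5.54% in all). That is 4.23% of the unnumbered and 6.85% of weighted numbered models. Total-count scaling gave 21 higher and 8 lower, the replicate number as a block 16 higher and 11 lower, ancestor batches from the replicate number 19 higher and 11 lower, and pairs summed 0 higher and 0 lower. Without the 4 libraries with over 35% of reads outside genes it was 5 higher and 2 lower. The count was 26 without heat-selected 20 °C replicate 2 and 11 and 8 without 30 °C replicate 1 or 2 of unheated parents. It was 5 and 8 without 20 °C replicate 1 or 2 of heated parents.

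CRE_PX356_883 (augustus_masked, scaffold 587) was highest in the heat-selected population in larvae at 20 °C of heated parents. It had 36.1 and 13.8 CPM at 30 °C and 202 and 216 CPM at 20 °C with heated parents, against 13.9, 29.5 and 42.5 CPM at 30 °C and 14.4, 122 and 168 CPM at 20 °C with unheated parents (1.83 ± 0.42, SE; adjusted p = 0.0055). Within batch E, unheated parents gave 13.9 and 22.8 CPM at 30 °C and 14.4 and 26.4 CPM at 20 °C, so the gap was at 20 °C. CRE_PX356_986 (augustus_masked, scaffold 96) had 16.8 and 15.9 CPM at 30 °C and 10.8 and 9.46 CPM at 20 °C with heated parents, against 3.71 and 4.06 CPM at 30 °C and 2.24 and 6.07 CPM at 20 °C in the batch E libraries of unheated parents (1.73 ± 0.43, SE; adjusted p = 0.011). With no batch term the differences of CRE_PX356_883 and CRE_PX356_986 were 0.43 and 0.34, and with pairs summed 1.89 and 1.78, all short of the threshold. The first was also lost without 30 °C replicate 1 of heated parents (1.40) and the second without 20 °C replicate 1 of unheated parents (1.51). The 2 that fell most were CRE_PX356_430, above, and CRE_PX356_2794.

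CRE_PX356_2794 (maker, scaffold 83) moved in opposite directions with parental temperature in 2 populations. With heated parents the heat-selected larvae had 7.74 and 5.07 CPM at 30 °C and 9.96 and 8.6 CPM at 20 °C, against 17.1, 24.2 and 38.6 CPM at 30 °C and 7.72, 11.7 and 14.2 CPM at 20 °C with unheated parents (−1.17 ± 0.30, SE; adjusted p = 0.015). At 30 °C the groups did not overlap. In the ancestor the larvae of heated parents had 47.1 and 51.3 CPM at 30 °C and 13.2 and 16.3 CPM at 20 °C, against 12, 18.7 and 27.4 CPM at 30 °C and 7.61, 11.7 and 14.2 CPM at 20 °C with unheated parents (0.90 ± 0.24, SE; adjusted p = 0.024), and again the groups at 30 °C did not overlap. The difference of the 2 parental effects was −2.07 ± 0.39 (SE; adjusted p = 3.9e-04). The heat-selected call was lost without the 4 libraries with over 35% of reads outside genes (−1.12), with pairs summed (−1.17), and without any 1 of heat-selected 20 °C replicate 1 of unheated parents (−1.03), 20 °C replicate 1 (−1.22) or 2 (−1.12) or 30 °C replicate 2 (−1.05) of heated parents.

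Between populations, the parental effect of the heat-selected population minus that of the ancestor was more positive in 34 and more negative in 14 unnumbered models, where 3.95 and 4.39% of all tested models were (8.34% in all). These are 11.9% of the unnumbered models, against 10.5% of weighted numbered models. The largest positive difference was that of CRE_PX356_5212 (4.83 ± 1.42, SE; adjusted p = 0.027), whose ancestor values carry the batch pattern above, and the largest negative one that of CRE_PX356_430, given above. Within batches A and E alone 14 were more positive and 12 more negative. With no batch term the counts were 15 and 6, with the replicate number as a block 13 and 18, and without the 4 libraries with over 35% of reads outside genes 13 and 10. With pairs summed 0 were more positive and 1 more negative. Ancestor batches from the replicate number gave 14 and 19, and under them the difference of CRE_PX356_5212 was 1.84, short of the threshold. The count was 26 without ancestor 20 °C replicate 1 of heated parents, 31 and 29 without heat-selected 30 °C replicate 1 or 2 of unheated parents, and 28 and 29 without heat-selected 30 or 20 °C replicate 1 of heated parents.

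For the control-selected population minus the ancestor 0 parental effects were more positive and 2 more negative (0.275 and 0.854% of all tested models, 1.13% in all). The larger was that of CRE_PX356_5025 (−2.65 ± 0.46, SE; adjusted p = 6.4e-04). Its control-selected larvae of heated parents had 8.87 and 7.57 CPM at 30 °C and 12 and 13.5 CPM at 20 °C, against 9.68, 11.9 and 15.7 CPM at 30 °C and 6.44, 14.3 and 18.6 CPM at 20 °C with unheated parents, ranges that overlap at 20 °C but not at 30 °C. With pairs summed that difference was −2.54, short of the threshold, and 0 models were called. The count of 2 became 7 under total-count scaling, 7 by DESeq2, 12 with no batch term and 4 with ancestor batches from the replicate number. It became 4 without ancestor 20 °C replicate 5. It became 1 without 20 °C replicate 1 or 2 of unheated parents in either population, ancestor 20 °C replicate 2 or 30 °C replicate 1 of heated parents, or control-selected 20 °C replicate 2 or 30 °C replicate 1 or 2 of heated parents. For the heat-selected minus the control-selected population edgeR called 0, where 0.0297% of all tested models were called, 20 had an unadjusted p under 0.05, DESeq2 called 0 and limma-voom 0. The edgeR count became 1 without heat-selected 30 °C replicate 1 of heated parents.

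The interaction asks whether the larval response differs with parental temperature. In the ancestor 15 unnumbered models had a more positive and 4 a more negative larval response with heated parents, where 1.05 and 0.55% of all tested models did (1.6% in all). The share is 4.73% of the unnumbered and 1.77% of weighted numbered models. The median over all unnumbered models leaned the other way from the calls. It was −0.32 log2 units (quartiles −0.79 and 0.27), against −0.10 in the numbered models. With ancestor batches from the replicate number these medians were −0.09 and −0.06. The count was 0 with pairs summed, 4 with no batch term and 3 within batch A alone (1 more positive, 2 more negative). It also rested on few libraries: it was 0 without ancestor 30 °C replicate 1 of heated parents, a library with 41.1% of its reads outside genes, and 1 and 9 without 20 °C replicate 1 or 2 of heated parents. CRE_PX356_2286 (maker, scaffold 2579) had the largest positive interaction (3.00 ± 0.52, SE; adjusted p = 0.0021), from 246 and 42.1 CPM in replicates 1 and 2 at 30 °C and 22.6 and 42.7 CPM at 20 °C with heated parents, against 21.2, 27.8 and 46.6 CPM at 30 °C and 28.3, 52.1 and 64.5 CPM at 20 °C with unheated parents. Without that first replicate it was 1.24, and without 20 °C replicate 1 of heated parents 2.61, both short of the threshold, as it was within batch A alone (2.84) and with pairs summed (2.40). CRE_PX356_4211 had the largest negative one (−3.20 ± 0.85, SE; adjusted p = 0.039), with the values given above. It was lost with no batch term (−1.96), with pairs summed (−3.18), and without any 1 of 6 libraries (values from −3.61 to −2.74), the 4 of heated parents and 20 °C replicates 1 and 2 of unheated parents.

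In the control-selected population edgeR called 0 interactions (0.0371% of all tested models more positive, 0.141% more negative, 0.178% in all), with 27 unnumbered models at an unadjusted p under 0.05, 2 by DESeq2 and 0 by limma-voom. In the heat-selected population 2 were called, both more positive (0.305% of all tested models more positive, 0.238% more negative, 0.542% in all). The larger was that of CRE_PX356_7079 (snap_masked, scaffold 971; 2.21 ± 0.55, SE; adjusted p = 0.045), with 20.4 and 53.9 CPM at 30 °C and 21.5 and 18.6 CPM at 20 °C with heated parents, against 3.19, 9.5 and 17.5 CPM at 30 °C and 16.1, 19.2 and 54.5 CPM at 20 °C with unheated parents. It was lost without any 1 of 12 of the 16 heat-selected libraries, and was smallest, at 1.33, without 30 °C replicate 2 of heated parents. The count of 2 became 5 by DESeq2 and 7 with no filter on low counts, and it became 0 by limma-voom, with no batch term and with pairs summed. Within batch E alone 2 were called, both more negative. The count became 0 without 20 °C replicate 1 or 5 or 30 °C replicate 1 or 2 of unheated parents, or without 20 °C replicate 1 or 2 or 30 °C replicate 2 of heated parents. It became 1 without 20 °C replicate 4 or 6 or 30 °C replicate 3 or 5 of unheated parents.

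The larval response itself was also compared between populations. For the control-selected population minus the ancestor 1 unnumbered model had a more positive and 3 a more negative response (0.431 and 0.438% of all tested models, 0.869% in all). At an unadjusted p under 0.05 there were 117 of the 402, a count not taken for the numbered or all tested models. The median difference was −0.40, against −0.07 in the numbered models. DESeq2 called 1 more positive and 20 more negative, edgeR with no filter on low counts 1 and 23, limma-voom 1 and 3, and edgeR under total-count scaling 1 and 8. The share called, unnumbered minus weighted numbered models, was 0.25 points in the main fit, 2.91 by DESeq2 and 4.16 with no filter. It was 0.12 by limma-voom and 1.17 under total-count scaling. With the ancestor's batches from the replicate number 0 were called and the median was −0.17, against −0.06, and 0 were called with the replicate number as a block, with no batch term or with pairs summed. CRE_PX356_5759 (snap_masked, scaffold 21) had the positive one (0.91 ± 0.24, SE; adjusted p = 0.049): control-selected larvae had 26.2, 32 and 44.8 CPM at 30 °C and 16.4, 21.8 and 25.5 CPM at 20 °C without overlap, and ancestor larvae 19.4, 25.7 and 43.2 CPM at 30 °C and 19.6, 27.1 and 46.7 CPM at 20 °C. CRE_PX356_6307 (snap_masked, scaffold 42) had the most negative one (−3.52 ± 0.90, SE; adjusted p = 0.042), with 6.94, 42.7 and 136 CPM at 30 °C and 30.2, 104 and 289 CPM at 20 °C in the control-selected population and 0.718, 29.4 and 223 CPM at 30 °C and 0.988, 49.6 and 170.3 CPM at 20 °C in the ancestor, where replicates 1 and 2 of both temperatures were below 2 CPM. With ancestor batches from the replicate number the 2 differences were 0.68 and −1.63, and neither passed the threshold. They were lost without any 1 of 15 and of 14 of the 24 libraries. The count of 4 became 19 without control-selected 30 °C replicate 4 and 17 without ancestor 20 °C replicate 6. It became 9 to 12 without ancestor 30 °C replicate 1, 2 or 4 or control-selected replicate 3 at 20 or 30 °C. It became 1 without ancestor 20 °C replicate 1 or 2 or 30 °C replicate 3, and 2 without ancestor 20 °C replicate 3 or 5 or 30 °C replicate 5 or 6, control-selected 20 °C replicate 1, 4 or 6 or 30 °C replicate 1, 2, 5 or 6. For the heat-selected population minus the ancestor edgeR called 0 (0.453% of all tested models), 64 had an unadjusted p under 0.05, with a median difference of −0.36 against −0.06 in the numbered models, and DESeq2 called 2 and limma-voom 0. The edgeR count became 1 without ancestor 20 °C replicate 3 or 30 °C replicate 2, or heat-selected 20 °C replicate 1 or 30 °C replicate 6. For the heat-selected minus the control-selected population the counts were 0 (0.223% of all tested models), 28, 0 and 0.

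At the level that chose them, the last models inside were CRE_PX356_6114 (snap_masked, scaffold 349) and CRE_PX356_258 (augustus_masked, linkage group 4), with ranges over 48 libraries of 4.98 to 20.4 and 2.89 to 39.1 CPM. The first outside were CRE_PX356_3957 (median 9.98 CPM, range 4.59 to 19.3) and CRE_PX356_2986 (median 9.94 CPM, range 4.55 to 21.7). The bound thus runs through models whose ranges overlap.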

How the data were processed

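RNA of 48 libraries of L1 larvae was counted over 24723 gene models. The deposited files hold raw read counts per model, 1 file per library, with 5 rows of reads outside the counts, which were left out of library sizes and tests. Per the submitters' processing notes the authors aligned reads with GSNAP and counted them with HTSeq. The HTSeq version, the genome build and the use of strand are not given in the sources used here, so reads of overlapping or antisense models cannot be told apart. Reads not assigned to a model made up 8.03 to 47.1% (outside genes), 9.77 to 37.5% (not aligned), 1.97 to 5.41% (ambiguous) and 1.8 to 6.12% (not unique) of a library.

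Counts were fitted in R 4.3.3 with edgeR 4.0.16 (TMM scaling, filterByExpr with a minimum count of 10, quasi-likelihood test) over all 13460 models kept, with 12 groups and batch within population, and p-values were adjusted by Benjamini-Hochberg over all of them for each of 15 comparisons, at a threshold of 0.05. All adjusted p-values are from this fit unless another tool (DESeq2 1.42.0, limma 3.58.1) is named. Errors of log2 fold changes are standard errors. Numbered models were weighted to the 6 level bands of the unnumbered ones. Counts at an unadjusted p under 0.05 were taken for the unnumbered models alone. The fit was tested on simulated data. The models and lists were chosen with earlier results of these data known. Named models are the 6 most abundant, the 2 that rose and the 2 that fell most in each larval and parental comparison and in all 3 populations, the 1 with the largest difference each way in each of 9 comparisons of responses, and the 2 on each side of 10 CPM. Other models named were chosen after their values were seen. Alternatives were other scalings, filters, tests, batch terms, single batches, summed replicates and 1 library left out.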

Additional observations from a re-analysis of the deposited data

Results flagged for a closer look

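Among 162 groups of 6 libraries (each named model in each group of unheated parents), 9 held a library far from the rest by Dixon's criterion, where chance gives about 1 in 20. In heat-selected larvae at 20 °C, replicate 3 stood apart with 2111 CPM for CRE_PX356_1986, 736 CPM for CRE_PX356_430 and 15.4 CPM for CRE_PX356_6114. CRE_PX356_430 had 46.3 CPM in control-selected larvae at 20 °C, replicate 1. CRE_PX356_938 had 17.6 CPM in control-selected larvae at 30 °C, replicate 1. CRE_PX356_7079 stood apart in 3 groups, with 59.8 CPM in control-selected replicate 1 at 30 °C, 46.9 CPM in control-selected replicate 2 at 20 °C and 54.5 CPM in heat-selected replicate 1 at 20 °C. CRE_PX356_258 had 25.6 CPM in control-selected larvae at 30 °C, replicate 2.

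Differences of responses between groups passed the threshold of the edgeR fit for these named models. The larval response with heated parents differed from that with unheated parents in the ancestor for CRE_PX356_4211 (−3.20), CRE_PX356_2286 (3.00) and CRE_PX356_5759 (1.33), and in the heat-selected population for CRE_PX356_7079 (2.21, all log2). The larval response of the control-selected population differed from that of the ancestor for CRE_PX356_883 (−2.07), CRE_PX356_5759 (0.91) and CRE_PX356_6307 (−3.52). The parental effect of the heat-selected population was more positive than that of the ancestor for CRE_PX356_5212 (4.83), CRE_PX356_986 (2.26), CRE_PX356_4211 (2.02), CRE_PX356_883 (1.92) and CRE_PX356_258 (1.70). It was more negative for CRE_PX356_430 (−4.95), CRE_PX356_5025 (−2.79), CRE_PX356_2523 (−2.18) and CRE_PX356_2794 (−2.07). The parental effect of the control-selected population was more negative than that of the ancestor for CRE_PX356_5025 (−2.65).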

How the results depend on the processing

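Counts of unnumbered models called, and the difference in percent called between unnumbered and weighted numbered models, stayed within 1.5 times of, or close to, their value in 154 of 234 recomputations under other settings; the other 80 follow. With scaling to total counts the calls numbered 9 (larval control-selected minus ancestor), 7 (parental control-selected minus ancestor), 29 (parental heat-selected) and 1 (interaction control-selected) and the differences were 0.262 (larval control-selected), 2.37 (larval heat-selected) and 0.512 (parental heat-selected) points. With size factors of DESeq2 the difference was −0.21 (parental control-selected) points. With no filter on low counts the calls numbered 24 (larval control-selected minus ancestor), 1 (larval heat-selected minus ancestor) and 7 (interaction heat-selected) and the differences were −0.911 (larval control-selected) and −0.35 (parental control-selected) points. By DESeq2's test the calls numbered 21 (larval control-selected minus ancestor), 2 (larval heat-selected minus ancestor), 7 (parental control-selected minus ancestor), 34 (parental ancestor), 2 (interaction control-selected) and 5 (interaction heat-selected) and the difference was −0.441 (parental control-selected) points. By limma-voom the calls numbered 0 (interaction heat-selected). With no batch term the calls numbered 0 (larval control-selected minus ancestor), 80 (larval ancestor), 56 (larval control-selected), 53 (larval heat-selected), 12 (parental control-selected minus ancestor), 21 (parental heat-selected minus ancestor), 139 (parental ancestor), 2 (parental control-selected), 4 (interaction ancestor) and 0 (interaction heat-selected) and the differences were −6.26 (larval ancestor), 10.8 (parental ancestor) and −0.455 (parental control-selected) points. With ancestor batches from the replicate number the calls numbered 0 (larval control-selected minus ancestor) and 4 (parental control-selected minus ancestor) and the differences were −6.23 (larval ancestor) and −1.4 (parental ancestor) points. In batches A, C and E alone the calls numbered 1 (larval heat-selected minus ancestor), 1 (larval heat-selected minus control-selected), 13 (larval control-selected), 27 (larval heat-selected), 1 (parental control-selected minus ancestor), 26 (parental heat-selected minus ancestor), 1 (parental heat-selected minus control-selected), 7 (parental ancestor) and 3 (interaction ancestor) and the differences were −0.0668 (larval control-selected) and −0.813 (larval heat-selected) points. In batches B, D and F alone the calls numbered 1 (larval control-selected minus ancestor), 3 (larval heat-selected minus ancestor), 1 (larval heat-selected minus control-selected) and 105 (larval ancestor) and the difference was −0.25 (larval heat-selected) points. With consecutive replicates summed the calls numbered 0 (larval control-selected minus ancestor), 77 (larval ancestor), 28 (larval control-selected), 26 (larval heat-selected), 0 (parental control-selected minus ancestor), 1 (parental heat-selected minus ancestor), 1 (parental ancestor), 0 (parental heat-selected), 0 (interaction ancestor) and 0 (interaction heat-selected) and the differences were 1.36 (larval control-selected), 1.14 (larval heat-selected) and −0.0494 (parental heat-selected) points. Without the 4 libraries with over 35% of reads outside genes, chosen after seeing the data, the calls numbered 1 (parental control-selected minus ancestor), 23 (parental heat-selected minus ancestor), 11 (parental ancestor), 7 (parental heat-selected), 0 (interaction ancestor) and 0 (interaction heat-selected). With bands of 1 log2 unit the difference was −0.203 (parental control-selected) points. With the replicate block the calls numbered 0 (larval control-selected minus ancestor), 31 (parental heat-selected minus ancestor), 12 (parental ancestor) and 27 (parental heat-selected) and the differences were −5.8 (larval ancestor) and −0.232 (parental control-selected) points. The replicate numbers were not taken as pairs: over 18 pairs of same-numbered libraries at 30 and 20 °C the correlations of their deviations ran from −0.08 to 0.84, 15 of them over 0.1, and 10 of 18 libraries at 30 °C and 8 of 18 at 20 °C correlated best with their own number. Leaving out 1 library at a time, the counts that moved by over 1.5 times ranged from 122 to 205 (larval ancestor), 7 to 40 (parental ancestor), 5 to 26 (parental heat-selected), 0 to 27 (interaction ancestor), 0 to 3 (interaction heat-selected), 0 to 1 (larval heat-selected minus ancestor), 1 to 19 (larval control-selected minus ancestor), 26 to 62 (parental heat-selected minus ancestor), 1 to 4 (parental control-selected minus ancestor) and 0 to 1 (parental heat-selected minus control-selected). The differences in percent called that moved ranged from −0.78 to 3.66 (parental ancestor) and −0.21 to −0.0095 (parental control-selected) points. For the named models no fold change turned its sign; the call was kept in 249 recomputations under other settings and lost in 60, and kept in 376 and lost in 88 with 1 library left out. The causes were not tested. Depth limits the models near 10 CPM most, and the groups of heated parents hold 2 libraries each.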
